A study of Mus musculus with 8 samples.

Results

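The levels of 10 genes of airway secretory cells were followed in whole lungs of embryos labelled as lacking the Polycomb methyltransferase gene Ezh2 in the epithelium and in control lungs. The members were Scgb1a1, Scgb3a1, Scgb3a2, Cyp2f2, Lypd2, Cckar, Muc5b, Spdef, Agr2 and Foxa3. They were taken by name from the annotation of the array, with earlier results of these data known. All 10 were measured among 22180 genes with a single symbol. They were covered by 11 probe sets, of which Cyp2f2 had 2, and the probe set brightest on average stood for a gene. The 4 mutant embryos were Shh-cre:Ezh2-flox/flox and the 4 control embryos were titled Shh-cre control, with no floxed Ezh2 named in the title. All 8 therefore carried the Cre driver, all were at embryonic day 14.5 and all were on a mixed C57BL/6 x 129S6 background. Shh-cre acts in the Shh-expressing epithelium, and the RNA came from whole lung. Other cells could therefore dilute an epithelial difference in genes that they also express, which was not tested. The embryos formed 4 litters of a single genotype each, mutants 1 and 2, mutants 3 and 4, controls 1 and 2, and controls 3 and 4, so genotype and litter were nested.

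Secretory cells line the airways together with ciliated cells. Club cells release secretoglobins and metabolise foreign compounds with cytochromes P450, and goblet cells make gel-forming mucins. Notch signalling favours the secretory over the ciliated fate, and FOXA and NKX2-1 transcription factors act at secretory genes. EZH2 places methyl groups on histone H3 lysine 27 in the repressive complex PRC2. The lungs were taken at the pseudoglandular stage, in which airways branch and the mature secretory cells of the adult airway have yet to form.

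Values are log2 expression from 1 array per embryo, so a difference of 1 is a doubling, and a gene passed where its Benjamini-Hochberg adjusted p over all genes was under 0.05 in limma with litter as a random effect. Of the 10 members, Lypd2 rose and Cckar fell in mutant lungs, and 8 did not pass. Lypd2, a surface protein of the Ly6 family, was 1.34-fold higher and Cckar, the receptor for the hormone cholecystokinin, was 1.78-fold lower. The classical products of club cells, Scgb1a1, Scgb3a1 and Scgb3a2, and the goblet cell genes Muc5b, Spdef and Foxa3 had log2 changes of -0.05 to 0.11. Cyp2f2 and Agr2, which also did not pass, had larger log2 changes of 0.64 and 0.19. Over all genes the same test called 0.852%, with 0.604% higher and 0.248% lower. The mutant and control values did not overlap for 4 members, Cyp2f2, Lypd2 and Agr2 with mutants higher and Cckar with mutants lower, against 8.07% of all genes, 4.48% with mutants higher and 3.60% with mutants lower. The median log2 change of the members was 0.05, beside 0.01 over all genes. Since the members and the lists below were chosen with earlier results of these data known, such counts are not an independent test.

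**Figure D1:**
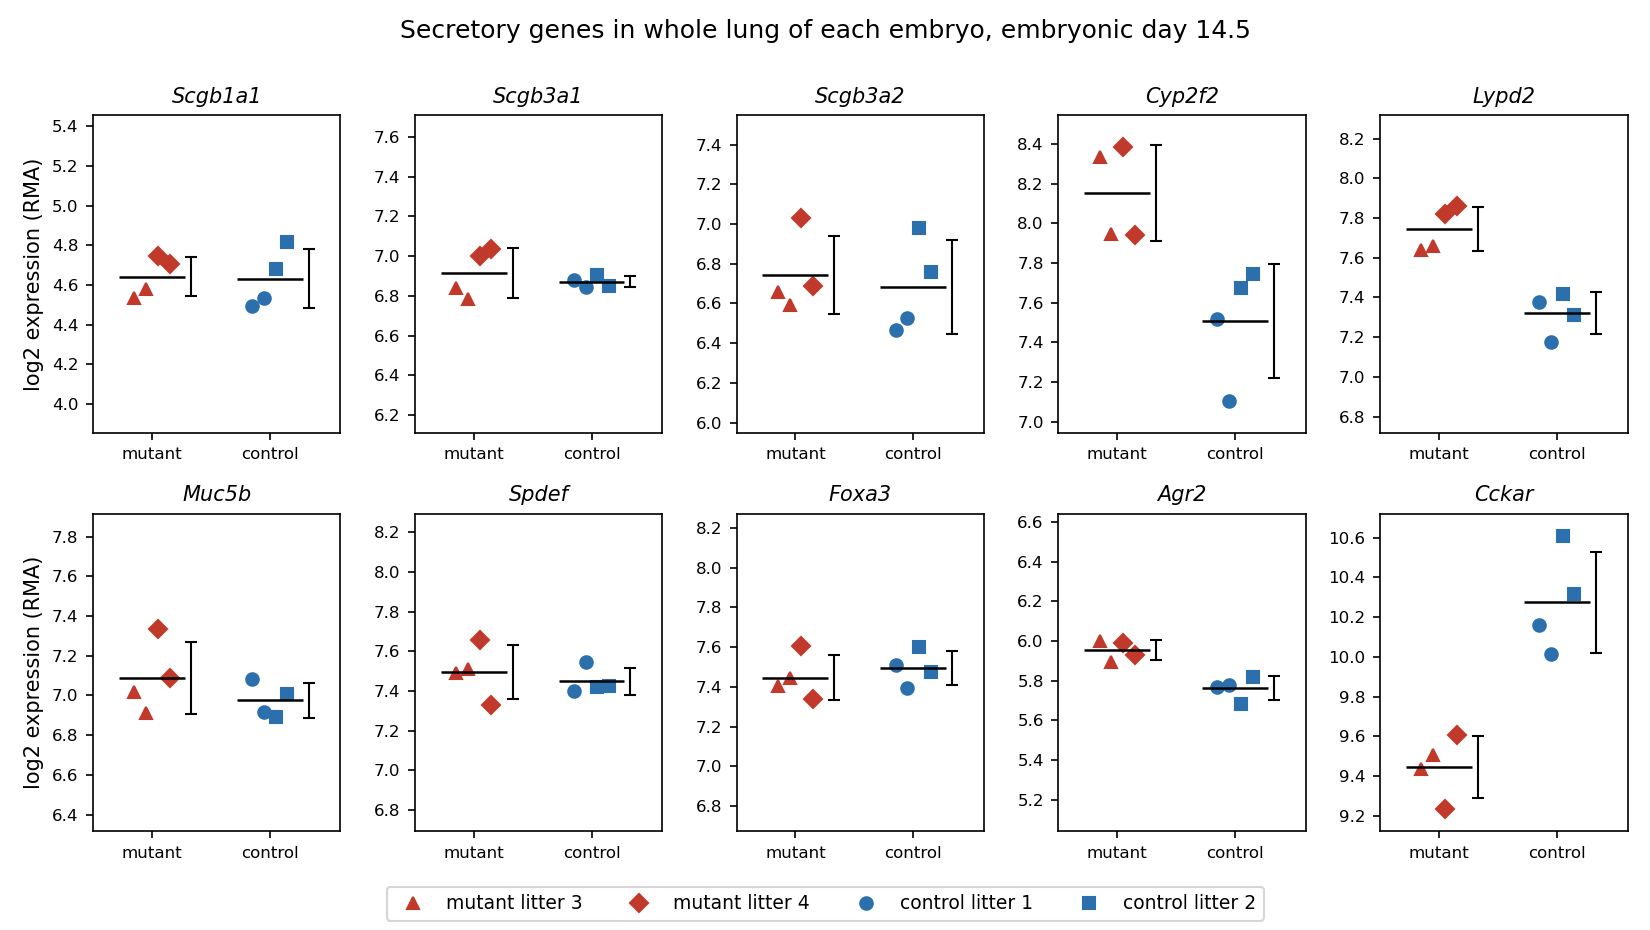
Log2 expression of each secretory gene in every embryo, mutants left of controls, with a symbol for each litter, a bar at the group mean and an error bar of 1 SD (n = 4). Every panel spans the same width on the log2 scale but is centred on the values of its own gene. Mutants and controls are apart for Cyp2f2, Lypd2, Agr2 and Cckar and overlap for the other 6 genes.

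The arrays had log2 medians of 7.05 to 7.12 and correlated at 0.9915 to 0.9976, and no pair held the same values. The lung epithelial factor Nkx2-1 read 10.74 in mutants and 10.79 in controls, and the lung mesenchyme gene Tbx4 read 11.29 in mutants and 11.24 in controls. Ezh2 itself averaged 11.78 ± 0.02 in mutants and 11.87 ± 0.05 in controls (SD, n = 4 each), a log2 change of -0.09 (adjusted p = 0.652), and where its probe set lies relative to the floxed part is not given in the sources used here. Mutant 3 and control 3 lay at the ends of the first principal component (32.5% of the variance). Mutant 3 and controls 1 and 2 had low Xist values (6.37 to 6.74), against 12.61 to 13.00 in the other 5 embryos.

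RefSeq promoter windows were at hand for 5 of the 10 members, each reaching from 250 bases before to 50 bases after the annotated start on build GRCm38.p6. These were Scgb3a1, Cyp2f2, Spdef, Agr2 and Foxa3, so neither member that passed, Lypd2 or Cckar, had a window. The windows of Cyp2f2 and Agr2 are shown because their mutant and control values did not overlap, and that of Foxa3 as the window with the most CpG pairs among the 5. Capitals mark matches on either strand to the FOXA motif TGTTTAC and its variants TATTTAC and also TGTTTGC, to the NKX2-1 motif CAAGTG and to the TATA box motif TATAAA, none of which overlapped another here.
Cyp2f2, chr7:27119705-27120004, plus strand: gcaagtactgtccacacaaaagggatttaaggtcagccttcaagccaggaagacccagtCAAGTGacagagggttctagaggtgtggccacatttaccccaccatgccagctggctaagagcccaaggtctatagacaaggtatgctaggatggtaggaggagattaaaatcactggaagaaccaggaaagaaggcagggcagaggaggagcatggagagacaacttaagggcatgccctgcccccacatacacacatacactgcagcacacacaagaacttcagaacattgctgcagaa
Agr2, chr12:35992675-35992974, plus strand: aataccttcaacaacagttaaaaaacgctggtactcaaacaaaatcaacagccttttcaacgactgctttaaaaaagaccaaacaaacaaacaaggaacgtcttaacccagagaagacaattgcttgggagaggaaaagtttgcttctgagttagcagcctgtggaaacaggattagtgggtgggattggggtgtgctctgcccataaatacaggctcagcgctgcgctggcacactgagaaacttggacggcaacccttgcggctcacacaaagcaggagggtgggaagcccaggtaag
Foxa3, chr7:19023490-19023789, minus strand: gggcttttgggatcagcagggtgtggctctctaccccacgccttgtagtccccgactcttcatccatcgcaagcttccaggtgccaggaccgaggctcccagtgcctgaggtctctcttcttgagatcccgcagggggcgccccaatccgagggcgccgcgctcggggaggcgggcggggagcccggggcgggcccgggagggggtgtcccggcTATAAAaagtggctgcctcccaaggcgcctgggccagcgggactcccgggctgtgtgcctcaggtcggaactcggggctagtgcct
The Cyp2f2 window held CAAGTG at bases 60 to 65, counted from its 5′ end. The Foxa3 window held TATAAA at bases 215 to 220, and the Agr2 window held none of these letters. The Scgb3a1 window had a FOXA match and an NKX2-1 match, and the Spdef window had a FOXA match. Of 32841 windows of 300 bases in the same table, 11.2% held a FOXA match, 13.6% an NKX2-1 match and 13.6% a TATAAA match. The Cyp2f2 window had 0 CpG pairs, Scgb3a1 3, Agr2 7, Spdef 7 and Foxa3 22, beside a median of 7 over all windows and quartiles of 3 and 20. These matches describe the letters of the windows only.

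The secretoglobins showed no genotype difference that passed. Scgb1a1 encodes the main secreted protein of club cells. Its log2 values were 4.54, 4.58, 4.75 and 4.70 in mutants 1 to 4, against 4.50, 4.53, 4.68 and 4.82 in controls 1 to 4. The groups overlapped throughout, and within each genotype 1 litter lay above the other. The log2 change was 0.01 ± 0.08 (SE), with a 95% confidence interval of -0.18 to 0.19, or 0.886 to 1.14 times the control level. Scgb3a1, which encodes a further secreted member of the family, averaged 6.91 ± 0.12 in mutants and 6.87 ± 0.03 in controls (SD, n = 4 each). Mutants 3 and 4, at 7.00 and 7.04, were above the highest control at 6.90, and mutants 1 and 2, at 6.84 and 6.78, were below the lowest control at 6.85. Its log2 change was 0.04, with an interval of -0.11 to 0.20. Scgb3a2, which marks the embryonic airway epithelium of the mouse before club cells mature, averaged 6.74 ± 0.20 in mutants and 6.68 ± 0.24 in controls (SD, n = 4 each). Its highest embryos were mutant 3 at 7.03 and control 3 at 6.98, so it varied more between embryos of a genotype than between genotypes. Its log2 change was 0.06 ± 0.13 (SE), with an interval of -0.23 to 0.35. The adjusted p was 0.984 for Scgb1a1, 0.887 for Scgb3a1 and 0.923 for Scgb3a2 by limma with Benjamini-Hochberg adjustment. The table carries no detection calls, so these values do not tell a low transcript from an absent one. In bulk RNA, fewer cells of a type and less RNA per cell cannot be told apart, here and below.

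Of the other secretoglobin genes listed, Scgb1c1, Scgb1b2, Scgb1b27, Scgb2b2, Scgb2b24 and Scgb2b27 were measured, and 0 of these 6 passed by limma or had an unadjusted p under 0.05. Over all genes 9.87% had an unadjusted p under 0.05. The largest difference was in Scgb1c1, with a log2 change of 0.19.

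Cyp2f2, a cytochrome P450 of club cells that activates naphthalene, had the largest increase among the members, but it did not pass. Its log2 values were 8.33, 7.95, 8.39 and 7.94 in mutants 1 to 4, against 7.52, 7.10, 7.68 and 7.74 in controls 1 to 4. All mutants were above all controls, by 0.20 at the closest embryos (mutant 4 and control 4), and control 2 was the lowest of the 8. The means were 8.15 ± 0.24 in mutants and 7.51 ± 0.29 in controls (SD, n = 4 each). The log2 change was 0.64 ± 0.16 (SE), with an interval of 0.29 to 1.00, and the adjusted p was 0.136 by limma with Benjamini-Hochberg adjustment. The exact permutation test over embryos gave a two-sided p of 0.0286, the least possible with 4 embryos a group, if littermates count as independent. Every gene whose groups do not overlap, 8.07% of all genes, gets this same p, so it only restates the missing overlap. Its spread within groups was larger than that of 98.4% of all genes. The second probe set of Cyp2f2 read 6.79, 6.53, 7.12 and 6.78 in mutants 1 to 4, against 6.82, 6.71, 6.75 and 6.89 in controls 1 to 4. Here the groups overlapped, with a log2 change of 0.01 and an interval of -0.26 to 0.29, so the probe sets disagree. This interval came from a fit on all 41345 probe sets, in which the first probe set had an interval of 0.25 to 1.03. Averaging both probe sets gave a log2 change of 0.33. Among the 5 embryos with high Xist values the change of the first probe set was 0.36, at a Benjamini-Hochberg adjusted p of 0.320 in limma. These were mutants 1, 2 and 4 and the single litter of controls 3 and 4.

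Of 14 listed relatives of Cyp2f2 in the Cyp2 family, 0 passed by limma and 0 had an unadjusted p under 0.05, against 9.87% of all genes. Their median log2 change was 0.01, and the largest difference was in Cyp2b9, at -0.17.

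Lypd2 was higher in every mutant. It read 7.64, 7.66, 7.82 and 7.86 in mutants 1 to 4, against 7.38, 7.17, 7.42 and 7.31 in controls 1 to 4. The lowest mutant (mutant 1) was above the highest control (control 3), and the litter of mutants 3 and 4 was above that of mutants 1 and 2 by 0.19. The means were 7.75 ± 0.11 in mutants and 7.32 ± 0.11 in controls (SD, n = 4 each). Lypd2 rose by 0.43 ± 0.08 (SE) on the log2 scale, with an interval of 0.25 to 0.60 and a Benjamini-Hochberg adjusted p of 0.0321 in limma. The call ended in several fits that left out a single embryo. The adjusted p was 0.0684 without control 2, 0.136 without control 4, 0.0677 without mutant 3 and 0.126 without mutant 4, and 0.129 with litter means, by limma with Benjamini-Hochberg adjustment, while the log2 change stayed between 0.33 and 0.52 in all 26 alternatives. Over all genes 89 were higher and 32 lower without control 4, and 73 and 28 without mutant 4, against 134 and 55 with all embryos.

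Relatives of Lypd2 in the Ly6 family were followed as well. Of the 18 on the array 1 rose, 0 fell and 17 missed the threshold, with a median log2 change of 0.09. The gene that rose was Lypd6b, which read 6.76, 6.47, 6.69 and 6.70 in mutants 1 to 4, against 5.96, 5.79, 6.04 and 5.92 in controls 1 to 4. All mutants were above all controls, and Lypd6b rose by 0.73 ± 0.09 (SE) on the log2 scale, at a Benjamini-Hochberg adjusted p of 0.00204 in limma. The measured genes next to Lypd2 in RefSeq order, Psca, Them6, Slurp1, Slurp2 and Lynx1, had log2 changes of -0.09 to 0.10, and none passed.

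The goblet cell genes ran as follows. Muc5b, the gel-forming mucin of normal airways, averaged 7.09 ± 0.18 in mutants and 6.97 ± 0.09 in controls (SD, n = 4 each). Mutant 3, at 7.34, was the highest embryo, and the other 3 mutants lay at 6.91 to 7.09, against 6.89 to 7.08 in controls. The log2 change was 0.11, with an interval of -0.09 to 0.32. Spdef, the ETS transcription factor that drives goblet cell differentiation, averaged 7.50 ± 0.14 in mutants and 7.45 ± 0.07 in controls (SD, n = 4 each). The highest and the lowest embryo were both mutants, mutant 3 at 7.66 and mutant 4 at 7.33. Its log2 change was 0.05, with an interval of -0.13 to 0.23. Foxa3, a forkhead factor of goblet cells, averaged 7.45 ± 0.11 in mutants and 7.50 ± 0.09 in controls (SD, n = 4 each). Its log2 change was -0.05, with an interval of -0.22 to 0.12, and mutant 3 and control 3 both read 7.60. The adjusted p was 0.771 for Muc5b, 0.897 for Spdef and 0.891 for Foxa3 by limma with Benjamini-Hochberg adjustment.

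Agr2, a protein disulfide isomerase of the endoplasmic reticulum needed for mucin production, had a small difference without overlap. It read 6.00, 5.89, 5.99 and 5.93 in mutants 1 to 4, against 5.77, 5.78, 5.68 and 5.82 in controls 1 to 4. The lowest mutant (mutant 2) was 0.07 above the highest control (control 4), and its spread within groups was larger than that of only 11.2% of genes. The log2 change was 0.19 ± 0.06 (SE), or 1.14-fold, with an interval of 0.06 to 0.32. The adjusted p was 0.278 by limma with Benjamini-Hochberg adjustment, and Agr2 did not pass in any of 26 alternatives.

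Among relatives of the goblet cell genes, Foxa1 alone passed. The gel-forming mucins Muc2, Muc5ac, Muc6 and Muc19 had 0 of 4 passing by limma and 0 with an unadjusted p under 0.05, with the largest log2 change in Muc5ac at 0.16. Agr3 and Txndc12, relatives of Agr2, had 0.05 and -0.09. Of the epithelial ETS factors Elf3, Elf5 and Ehf, 0 passed by limma and 1 had an unadjusted p under 0.05, and Ehf had the largest log2 change, 0.32. The relative of Foxa3 that changed was Foxa1, a forkhead factor of lung epithelium, with 9.73, 9.71, 9.88 and 9.87 in mutants 1 to 4, against 10.36, 10.35, 10.39 and 10.33 in controls 1 to 4. Foxa1 fell by 0.56 ± 0.06 (SE) on the log2 scale. Foxa2 also had mutants below controls without overlap, with a log2 change of -0.20 and a Benjamini-Hochberg adjusted p of 0.342 in limma.

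**Figure D2:**
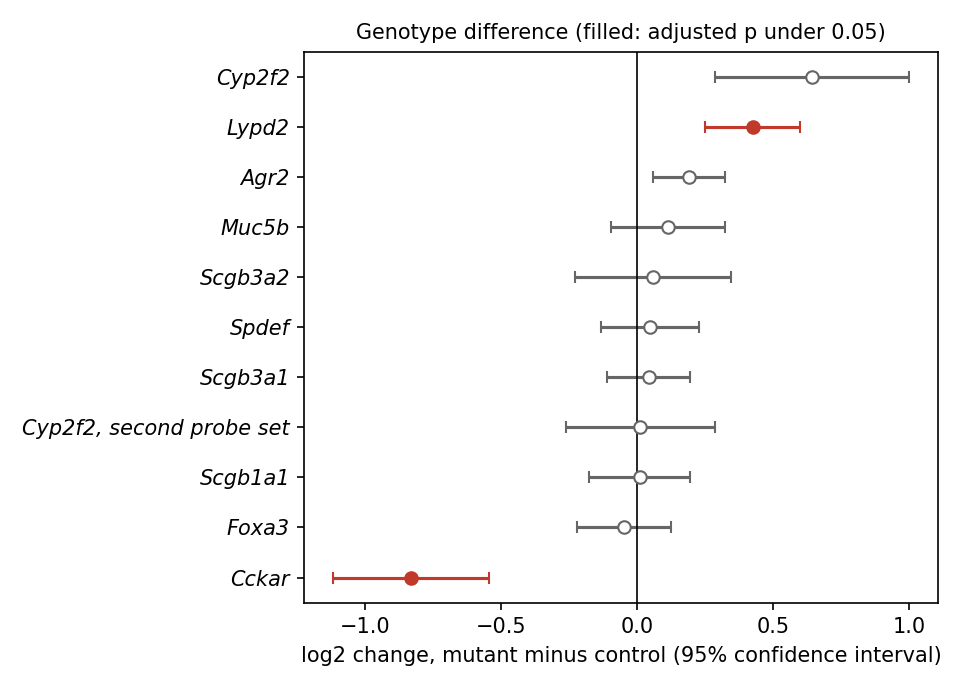
Log2 change of each secretory gene, mutant minus control, with its 95% confidence interval (n = 4 embryos per group). The filled points, Lypd2 at 0.43 and Cckar at -0.83, had an adjusted p under 0.05. The second probe set of Cyp2f2 lies at 0.01, with its interval from a fit on all 41345 probe sets.

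Cckar showed the largest difference of the 10 and the only decrease that passed. It read 9.43, 9.50, 9.23 and 9.61 in mutants 1 to 4, against 10.16, 10.02, 10.61 and 10.31 in controls 1 to 4. Every mutant was below every control, with mutant 3 lowest and control 3 highest, and the control litters differed from each other by 0.37. The means were 9.44 ± 0.16 in mutants and 10.27 ± 0.25 in controls (SD, n = 4 each). Cckar fell by 0.83 ± 0.13 (SE) on the log2 scale, to 56.3% of the control level, with an interval of 46.1 to 68.6% and a Benjamini-Hochberg adjusted p of 0.0118 in limma. The call ended without control 4, at a Benjamini-Hochberg adjusted p of 0.0519 in limma, and with all 41345 probe sets tested, at 0.0591. It also ended without either mutant litter, at 0.0590 without mutants 1 and 2 and 0.0637 without mutants 3 and 4. Without control 4 the log2 change of Cckar was -0.85, and over all genes 89 were higher and 32 lower, against 134 and 55. The decrease was 0.65 without control 3 and mutant 3, and 0.95 among the 5 embryos with high Xist values. These were mutants 1, 2 and 4 and controls 3 and 4, so all their controls came from a single litter. The ligands Cck and Gast and the second receptor Cckbr had log2 changes of 0.15, -0.02 and 0.06, and 0 of the 3 passed by limma or had an unadjusted p under 0.05. The measured genes next to Cckar in RefSeq order, Smim20, Rbpj and Tbc1d19, had -0.03, -0.18 and -0.23, and none passed. Tbc1d19 had mutants below controls without overlap, as 3.60% of all genes did, and an unadjusted p of 0.0109 in limma.

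**Figure D3:**
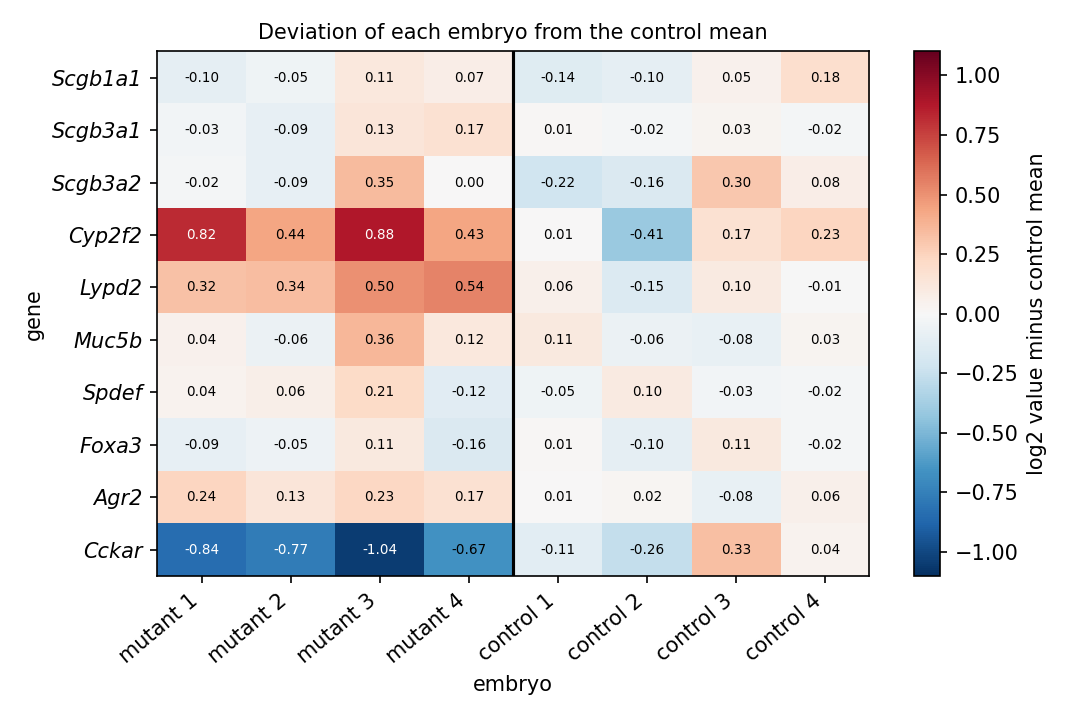
Log2 value of each embryo minus the control mean for each secretory gene, mutants left of the line and controls right of it. Cckar is below the control mean in all 4 mutants (-0.67 to -1.04), Lypd2 above it in all 4 (0.32 to 0.54), and mutant 3 is high for several genes.

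Mutant 3 stood out among the embryos for these genes. It was the highest of the 8 for 5 members (Scgb3a2, Cyp2f2, Muc5b, Spdef and Foxa3, the last by less than 0.01) and the lowest for Cckar. Over all genes, mutant 3 was the highest embryo for 22.0% and the lowest for 18.1%, and control 3 for 21.2% and 16.1%. The mean deviation of the 10 members from the control mean was 0.18 in mutant 3, against -0.01 to 0.06 in the other mutants and 0.09 in control 3. The part of litter, sex and position on the first principal component in this was not tested.

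Across the 38 measured genes that lie within 3 places of a member in RefSeq order, 0 passed by limma and 1 had an unadjusted p under 0.05. Their log2 changes ran from -0.23 to 0.16, with a median of -0.02. The gene at -0.23 was Tbc1d19 beside Cckar, and the gene at 0.16 was Muc5ac beside Muc5b. Tbc1d19 was also the gene with an unadjusted p under 0.05, a threshold met by 9.87% of all genes.

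By root mean square difference of mean-centred log2 values over the 8 arrays, the genes most like Cckar were Elapor1 (0.091), Cpn1 (0.132) and Aldh1a7 (0.158). All 3 were lower in mutants, with log2 changes of -0.84, -0.94 and -0.68. Those most like Lypd2 were Sesn2 (0.0503), a sestrin of the stress response, Upk1b (0.0554), a uroplakin, and Ovol1 (0.0619), an epithelial transcription factor, with log2 changes of 0.47, 0.46 and 0.41. Those most like Cyp2f2 were Adgrf5 (0.167), an adhesion receptor, Ak1 (0.169), an adenylate kinase, and Pcsk6 (0.176), a proprotein convertase, with log2 changes of 0.55, 0.41 and 0.60. Ak1 did not pass, at a Benjamini-Hochberg adjusted p of 0.136 in limma. The profiles include the difference between genotypes, so such likeness is not independent of it. How much of the likeness it makes up was not tested.

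Other club and goblet genes moved in both directions. Of 33 measured outside the 10, Cbr2 rose, Aldh1a7 fell and 31 did not pass, with a median log2 change of 0.08. Cbr2, a carbonyl reductase of club cells, read 10.17, 9.88, 10.07 and 10.01 in mutants 1 to 4, against 7.99, 7.71, 7.71 and 7.70 in controls 1 to 4, a log2 change of 2.26 that exceeds any in the members. Aldh1a7, an aldehyde dehydrogenase, read 9.44, 9.59, 9.49 and 9.62 in mutants 1 to 4, against 10.08, 10.11, 10.28 and 10.38 in controls 1 to 4. The mean level of these 33 genes was 6.82 to 6.99 over the mutants, against 6.78 to 6.87 over the controls, so the embryos overlapped.

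Among 24 regulators of the secretory fate, Jag2 rose, Foxa1 fell and 22 did not pass, with a median log2 change of 0.01. Jag2, a Notch ligand, read 8.50, 8.55, 8.62 and 8.40 in mutants 1 to 4, against 7.96, 8.06, 8.12 and 8.24 in controls 1 to 4. Jag2 rose by 0.42 ± 0.08 (SE) on the log2 scale.

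**Figure D4:**
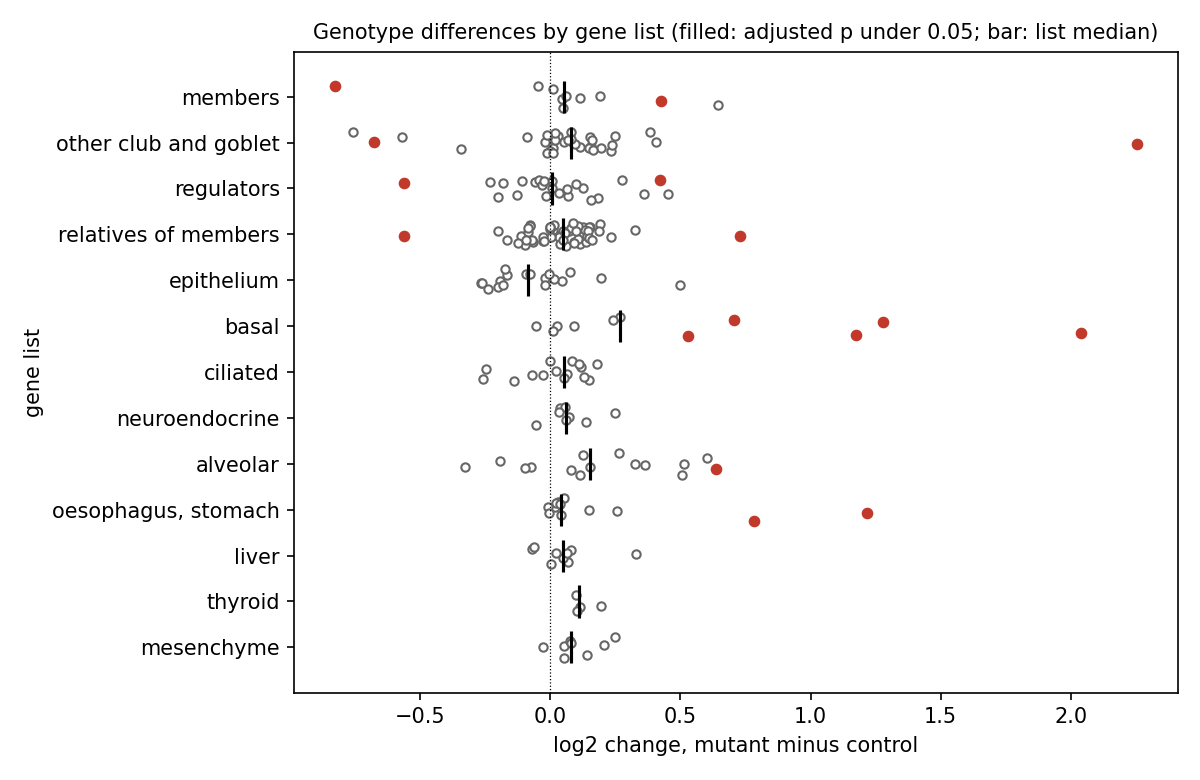
Log2 change, mutant minus control, of every measured gene in the lists of secretory genes, their regulators and relatives, and markers of other cell types. Filled points had an adjusted p under 0.05 and a black bar marks the list median; 5 of 11 basal markers are filled on the right, against 1 member on each side.

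Markers of other cells were set beside these values. Of 11 basal cell markers 5 rose and 0 fell, led by Krt15, Dapl1, Trp63 and Krt17 with log2 changes of 2.04, 1.28, 0.71 and 1.17. The other 6 did not pass, with log2 changes from -0.06 in Krt14 to 0.27 in Aqp3. The mean level of all 11 was 8.45 to 8.53 over the mutants, against 7.89 to 7.99 over the controls. Of 18 general epithelial markers 0 passed by limma and 8 had an unadjusted p under 0.05, against 9.87% of all genes, with a median log2 change of -0.08 and mean levels of 9.48 to 9.56 over the mutants, against 9.46 to 9.71 over the controls. Of 15 alveolar markers Napsa, an aspartic protease of surfactant processing, rose by 0.64 on the log2 scale, whereas 14 did not pass, with mean levels of 8.92 to 9.24 over the mutants, against 8.76 to 8.97 over the controls. Of 15 ciliated cell markers 0 passed and 2 had an unadjusted p under 0.05, and of 8 neuroendocrine markers 0 passed and 1 had one, all by limma, both counts near the 9.87% of all genes. At the same unadjusted threshold were 7 of the 11 basal markers, 6 of the 15 alveolar markers, 11 of the 33 other club and goblet genes, 8 of the 24 regulators and 4 of the 10 members. The largest log2 changes in the epithelial, ciliated and neuroendocrine lists were 0.50 in Krt19, -0.26 in Myb and 0.25 in Chga. Krt19 and Myb went against most of their lists. Positive log2 changes were found in 5 of the 18 epithelial, 9 of the 15 ciliated and 7 of the 8 neuroendocrine markers. The part of cell composition in the differences of Lypd2 and Cckar was not tested.

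**Figure D5:**
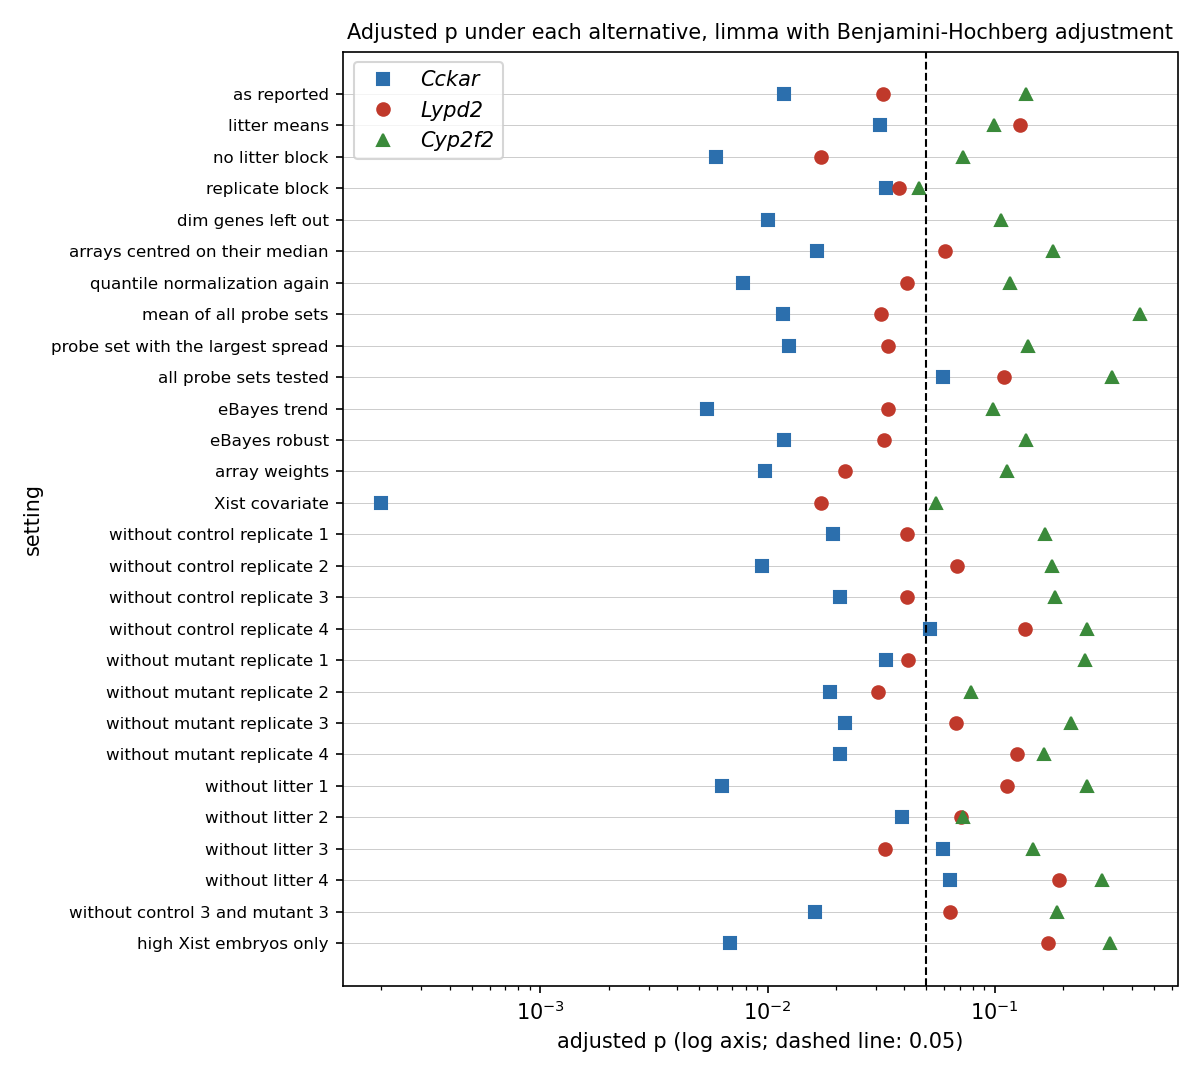
Adjusted p of Cckar, Lypd2 and Cyp2f2 (limma with Benjamini-Hochberg adjustment, log axis) as reported and under each alternative, with a dashed line at 0.05. Cckar passed in 23 of 27 alternatives, Lypd2 in 14 of 26 and Cyp2f2 in 1 of 27.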

How the data were processed

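Whole lungs of 8 embryos were measured with 1 Affymetrix array each. The authors deposited 1 log2 value per probe set, computed by RMA in oligo per the submitters' processing notes. The sources used here give no options, version or genome build. RMA equalises distributions between arrays and shrinks differences of dim genes. The number of arrays limits the precision.

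Of 41345 probe sets, 23521 had a single symbol in the platform annotation, which can be old. The brightest probe set on average stood for each of 22180 genes. Genotype was fitted with limma 3.58.1 in R 4.3.3, a random litter block (correlation 0.153), moderated variances and p-values adjusted by Benjamini-Hochberg across the 22180 genes, two-sided, at an adjusted p of 0.05. The fit was also run on simulated data with known changes added, where false calls were not counted. Figures used Python 3.11.15 and matplotlib 3.10.9. Members, lists and the rule for named genes (all members, the called genes of each list up to 4, otherwise its largest change, neighbours and most alike genes) were chosen with earlier results of these data known. Promoter windows are from RefSeq.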

Additional observations from a re-analysis of the deposited data

How the results depend on the processing

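The count of members higher was 0 with litter means, with each array centred on its median, with all probe sets tested, without litter 1, 2 or 4, and, in alternatives chosen after seeing the data, without control 3 and mutant 3 and with high-Xist embryos only. It was also 0 with dim genes left out, where only 2 members were above the limit and Lypd2 was not tested, and it was 0 to 1 with single embryos left out. The count of members lower was 0 with all probe sets tested and without litter 3 or 4, and 0 to 1 with single embryos left out. Fits that drop a litter had no litter block. With the replicate number as a replicate block the count of members higher was 2, Cyp2f2 joining at a Benjamini-Hochberg adjusted p of 0.0464 in limma, and over all genes 140 were higher and 55 lower, against 134 and 55. The numbers do not pair embryos: deviations of same-numbered embryos correlated at -0.27 to 0.03, and no mutant correlated best with its own number. Across all genes the alternatives called 65 to 361 higher and 23 to 313 lower, with both lowest counts from fits on fewer arrays or litter means, and both highest with the Xist level as a covariate. Signs turned only for members that never passed. The log2 change of Scgb1a1 was -0.0083 with centred arrays, -0.0013 with array weights, -0.0095 with the Xist covariate, -0.107 without litter 1, -0.073 without litter 4, -0.0070 without control 3 and mutant 3, -0.142 with high-Xist embryos only and -0.033 to 0.062 with single embryos left out. That of Scgb3a2 was -0.127 without litter 1, -0.057 without litter 4, -0.223 with high-Xist embryos only and -0.036 to 0.152 with single embryos left out. Without litter 4 Scgb3a1 was -0.060 and Muc5b -0.0095, and Spdef was -0.0145 without control 3 and mutant 3 and -0.0088 to 0.111 with single embryos left out. The cause of these shifts was not tested. Signal over background is unknown without detection calls, and 8 of the 10 members had means below the median of the gene means, the limit used for dim genes.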

Other observations

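Markers of tissues next to the lung were measured beside the secretory genes. Of 12 markers of oesophagus and stomach, the stratified epithelium keratin Krt4 rose by 1.22 on the log2 scale, the foregut transcription factor Pax9 rose by 0.78, and 10 did not pass. Of 9 liver markers and 4 thyroid markers 0 passed by limma, 0 and 1 of them had an unadjusted p under 0.05, and the largest log2 changes were 0.33 in Alb and 0.19 in Pax8. Of 8 mesenchyme markers 0 passed by limma and 1 had an unadjusted p under 0.05, with the largest log2 change in Col1a1, at 0.25.

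The promoter windows of secretory genes and a regulator outside the 10 that changed differed in their letters. The Foxa1 window held 26 CpG pairs and a FOXA match, the Cbr2 window held 4 CpG pairs and none of the searched motifs, and the Aldh1a7 window held 1 CpG pair, NKX2-1 matches at bases 232 to 237 and 267 to 272 and TATAAA at bases 7 to 12.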
